A study of Homo sapiens with 8 samples.

Results

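The genes described here are the translation initiation factors. They were taken as every non-control probe whose gene name in the scanner files begins with EIF and a digit from 1 to 6, leaving out the EIF2AK kinases. This gave 85 probes for 53 of the 32080 gene names on the array. RNA came from HCT-116, a human colorectal cancer line, grown in every group in DMEM with 10% FBS, and was measured on 8 one-colour Agilent arrays, 2 per group. WT was the untreated parental line. WT+NU6102 was that line after 24 h in 20 µM NU6102, an inhibitor of CDK1 and CDK2. CDK2 KO was the untreated knockout line, which was bought, and R50 was a line obtained from colonies that grew in NU6102 and was kept in 50 µM of it. R50 therefore differs from WT+NU6102 in dose, in length of exposure and in selection, and the sources used here give each of CDK2 KO and R50 as 1 line. The labels do not say whether duplicates were separate cultures, so that the p-values below measure only the spread between arrays, which may be technical.

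Initiation factors bring the initiator tRNA and the small ribosomal subunit to an mRNA, scan it for the start codon and join the large subunit. eIF2 carries the initiator tRNA in its GTP-bound state, eIF2B recharges it with GTP, eIF3 is the large scaffold on the small subunit, and the eIF4F complex of eIF4E, eIF4A and eIF4G binds the cap and unwinds the mRNA. Growth signals act on the cap-binding step through the 4E-binding proteins, and stress kinases act on eIF2, after which eIF2B is inhibited. The names EIF2C1 to EIF2C4 are older symbols of the Argonaute genes AGO1 to AGO4, which bind small RNAs and are not initiation factors. They fall under the rule and are in the counts of 51 genes, and each comparison also gives its counts without them.

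Levels are log2 signal less the 75th percentile of the array, so that 0 is the signal at that percentile and each unit is a further step of log2 signal. A level is used only to compare arrays, not genes, since probes differ in brightness. A probe was tested with limma when some group had it well above background on each of its 2 arrays, which held for 81 of the 85 probes and 28677 in all. On every one of the 8 arrays 76 of the 81 passed that limit. The tested probes belong to 51 genes. EIF3IP1 and EIF4E1B, and 1 probe each of EIF1AY and EIF3E, were not well above background on any array. Each gene is described by its brightest tested probe, and called higher or lower where the p-value adjusted over all probes was under 0.05. Between 32376 and 36206 of 58717 spots per array were well above background. The CDK2 probe was lower in CDK2 KO than in WT, by a log2 fold change of -0.77 (limma adjusted p = 0.000268), but remained well above background there. Of 10 epithelial and intestinal markers 6, among them EPCAM, KRT8 and CDX2, were well above background on all 8 arrays, while VIL1, LGR5 and CEACAM5 were so on none. Of 10 markers of other cell types PTPRC, VWF and COL1A1 passed the background limit on all 8 arrays and COL3A1 on none. The summed signal of the 10 epithelial markers, in multiples of the 75th percentile, was 474 to 482 in WT, 556 to 576 in WT+NU6102, 598 to 621 in CDK2 KO and 738 to 743 in R50. That of the 10 others was 0.644 to 0.659 in WT, 0.541 to 0.551 in WT+NU6102, 0.938 to 0.980 in CDK2 KO and 0.766 to 0.907 in R50. Of 7 tested epithelial markers 3 higher and 3 lower were called with NU6102, 3 higher and 1 lower in CDK2 KO and 4 higher and 1 lower in R50, each against WT. Of 6 tested markers of other types 0 higher and 3 lower were called with NU6102, 4 higher and 0 lower in CDK2 KO and 1 higher and 2 lower in R50. Their part in the results was not tested. The arrays of WT and WT+NU6102 were on 1 slide and those of CDK2 KO and R50 on the other, so that in the comparisons across slides the slide cannot be told apart from the group. R50 against CDK2 KO and the effect of NU6102 on WT lie within a slide. The comparisons with WT share the WT arrays and are therefore not independent of each other.

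In WT cells treated with NU6102 most initiation factor genes rose. Of the 51 genes 33 were called higher than in WT, against a background of 25.2% of the 19509 tested genes, and 4 were called lower, against 21.9%. The remaining 14 were not called. The median log2 fold change of the 51 genes was 0.30, and that of all tested genes 0.04. EIF2C2 and EIF2B2 were the 2 genes that rose by a log2 fold change of at least 1, which 1.16% of all genes did, and EIF2C4 was the 1 gene that fell as far, against 5.51%. Without the Argonaute genes 30 of 47 were called higher and 3 lower. When each array was left out in turn, 27 of the 33 higher calls and all 4 lower calls were kept in all 8 fits. With quantile normalization in place of the percentile 25 genes were called higher, against 22.2% of all genes, and 7 lower, against 23.4%. The median log2 fold change was then 0.16 against 0.02 for all genes. In bulk RNA a change in the number of cells that express a gene and a change in RNA per cell cannot be told apart.

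**Figure D1:**
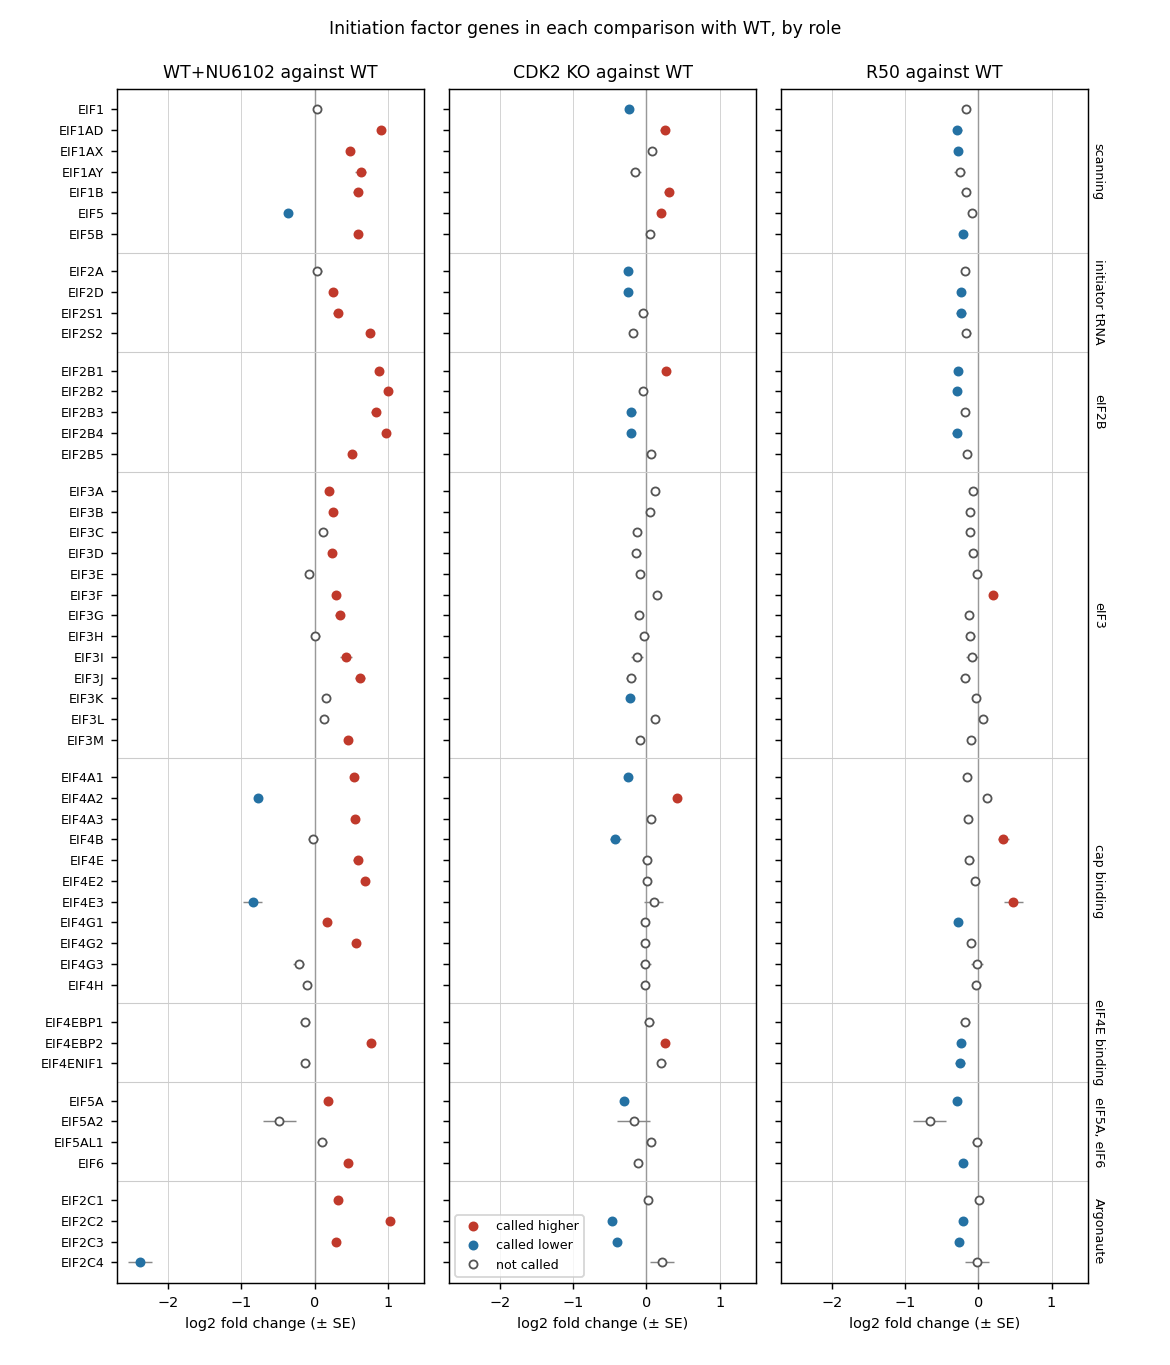
Log2 fold change (x axis) of the brightest tested probe of each of 51 genes (rows, grouped by role) in WT+NU6102, CDK2 KO and R50, each against WT, with horizontal lines of 1 SE. Filled points were called at an adjusted p under 0.05, red for higher and blue for lower. In the left panel 33 points are red and 4 blue, and all 5 eIF2B genes lie to the right of 0.5. EIF2C4 at the lower left was not well above background with NU6102, so that its size there is not a measured fold.

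**Figure D2:**
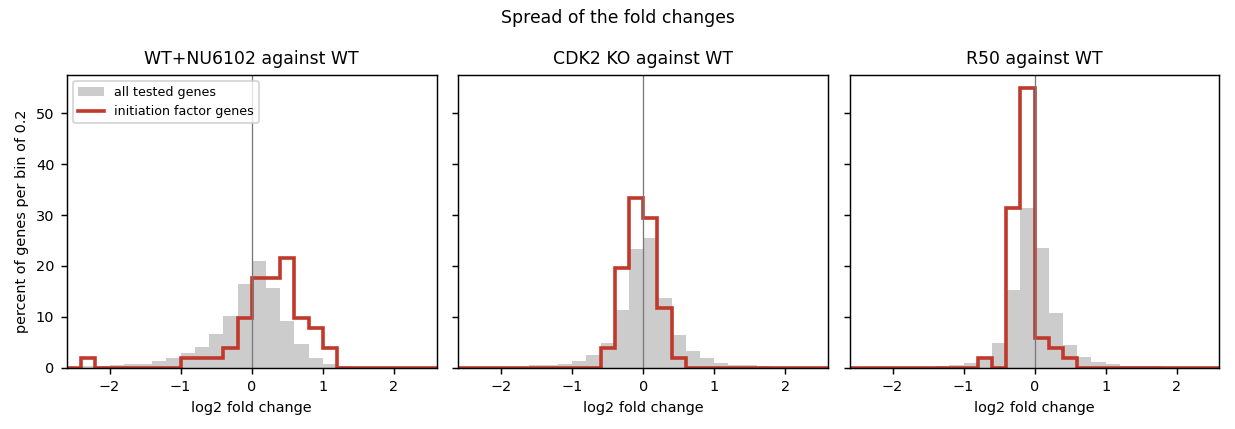
Percent of genes (y axis) in bins of log2 fold change 0.2 wide (x axis), for all 19509 tested genes (grey) and the 51 initiation factor genes (red line), in the same comparisons. With NU6102 the red line is shifted to the right of the grey, with medians of 0.30 and 0.04, while in CDK2 KO the medians are -0.03 and 0.03 and in R50 -0.16 and -0.03.

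The 5 subunits of eIF2B, the exchange factor that returns eIF2 to its GTP-bound state, were all called higher with NU6102, with a median log2 fold change of 0.89 and a range from 0.51 to 1.01. EIF2B2, the beta subunit, measured 3.16 and 3.18 in WT, 4.14 and 4.22 in WT+NU6102, 3.17 and 3.09 in CDK2 KO and 2.86 and 2.90 in R50. Its level was highest on both treated arrays and lowest on both R50 arrays, and CDK2 KO overlapped WT. The rise with NU6102 was 1.01 ± 0.06 (SE, n = 2 per group; limma adjusted p = 0.000190). EIF2B4, the delta subunit, measured 1.67 and 1.63 in WT, 2.58 and 2.67 in WT+NU6102, 1.44 and 1.43 in CDK2 KO and 1.30 and 1.40 in R50, with a rise of 0.98 ± 0.06 (SE, n = 2 per group; limma adjusted p = 0.000240). EIF2B1, the alpha subunit that senses phosphorylated eIF2, measured 2.79 and 2.77 in WT, 3.64 and 3.68 in WT+NU6102, 3.07 and 3.03 in CDK2 KO and 2.49 and 2.51 in R50. Each of its 4 groups was separate from the others, in the order R50, WT, CDK2 KO and WT+NU6102. The rise was 0.89 ± 0.05 (SE, n = 2 per group; limma adjusted p = 0.000171). EIF2B3, the gamma subunit, measured 2.29 and 2.40 in WT, 3.16 and 3.21 in WT+NU6102, 2.15 and 2.13 in CDK2 KO and 2.12 and 2.21 in R50, with a rise of 0.84 ± 0.06 (SE, n = 2 per group; limma adjusted p = 0.000352), and its 2 other probes rose by 0.83 and 0.97. EIF2B5, the catalytic epsilon subunit, measured 1.04 and 0.97 in WT, 1.50 and 1.52 in WT+NU6102, 1.06 and 1.08 in CDK2 KO and 0.83 and 0.86 in R50 and rose least of the 5, by 0.51 ± 0.05 (SE, n = 2 per group; limma adjusted p = 0.000756). None of the 5 lost its call when any of the 8 arrays was left out.

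**Figure D3:**
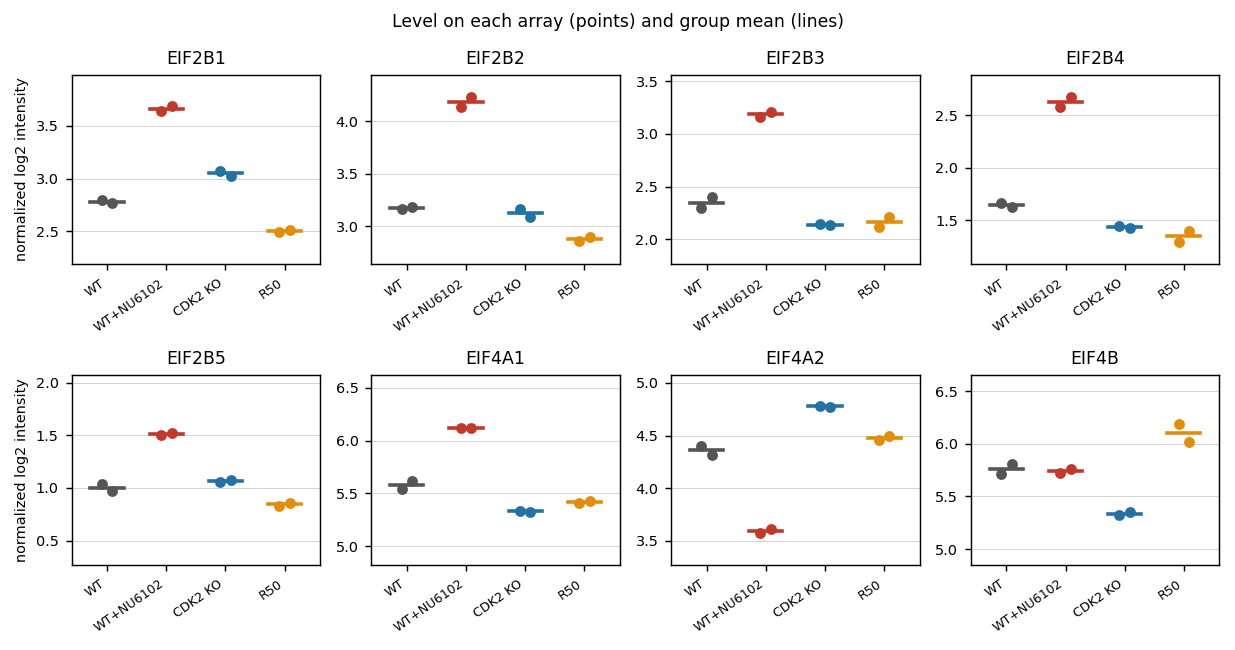
Normalized log2 intensity (y axis, log2 signal less the 75th percentile of the array, each panel spanning 1.8 units) of 8 genes in the 4 groups. Points are arrays and lines are means of 2 arrays. The 5 eIF2B genes and EIF4A1 are highest in WT+NU6102, EIF4A2 is lowest there, and EIF4B is lowest in CDK2 KO and highest in R50.

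Since most initiation factor genes rose with NU6102, the promoters of the 51 genes were searched for 3 motifs. The shares of all promoters below are not limited to tested genes. RefSeq promoters (GRCh38.p14, 250 bases before to 50 after the start) were found for 43 of the 51 genes. The E-box CACGTG, which reads the same on both strands, was in 10 of the 43 (23.3%) and in 7.43% of all 27305 promoters. CCGGAAG, a core bound by ETS family factors, was on either strand in 11 (25.6%) and in 10.7% of all. TGACGTCA, the cAMP response element, was in 0 of the 43 and in 1.98% of all. Among genes called higher with NU6102 15 of 29 held CACGTG or CCGGAAG, and among genes not called 5 of 10 did. The 4 genes called lower held neither. The 120 bases before the start are shown for EIF2B1, with CCGGAAG in capitals. In the same stretch EIF2B2, EIF2B3, EIF2B4 and EIF2B5 hold none of the 3 motifs. Elsewhere in the 300 bases searched EIF2B2 holds CCGGAAG and EIF2B3 holds CACGTG, while EIF2B4 and EIF2B5 hold none. The stretch of 120 bases is also shown for EIF4A1 and EIF4A2, helicase paralogues that moved in opposite directions and hold none of the 3 motifs there.
EIF2B1, chr12:123633687-123633806: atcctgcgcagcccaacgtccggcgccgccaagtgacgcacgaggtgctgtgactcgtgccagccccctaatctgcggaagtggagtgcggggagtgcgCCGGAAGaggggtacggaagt
EIF4A1, chr17:7572705-7572824: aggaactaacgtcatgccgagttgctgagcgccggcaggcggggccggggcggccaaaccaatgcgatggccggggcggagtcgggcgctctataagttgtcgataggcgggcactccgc
EIF4A2, chr3:186783457-186783576: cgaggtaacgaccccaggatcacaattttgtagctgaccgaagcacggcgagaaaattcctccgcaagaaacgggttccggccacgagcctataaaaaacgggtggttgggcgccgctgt

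Of the 7 tested genes for scanning and start codon selection 5 were called higher with NU6102 and 1 lower, with a median log2 fold change of 0.59. The shares of all genes, 25.2% higher and 21.9% lower, are the background of this count and of those for the groups that follow. EIF1AD, which encodes a protein with an eIF1A-like domain, measured 2.62 and 2.58 in WT, 3.52 and 3.50 in WT+NU6102, 2.85 and 2.84 in CDK2 KO and 2.24 and 2.38 in R50. The treated arrays were highest and the R50 arrays lowest, and no groups overlapped. It rose by 0.91 ± 0.06 (SE, n = 2 per group; limma adjusted p = 0.000292). EIF5B, the GTPase that joins the ribosomal subunits, rose by 0.59 (adjusted p = 0.000492), EIF1B, a close relative of EIF1, by 0.59 (adjusted p = 0.00104) and EIF1AX, which encodes eIF1A, by 0.49 (adjusted p = 0.000967). EIF1AY, its counterpart on the Y chromosome, was called higher too. EIF5, whose product triggers GTP hydrolysis by eIF2 at the start codon, went the other way. It measured -0.74 and -0.67 in WT and -1.10 and -1.02 in WT+NU6102, both treated arrays below both WT arrays, a change of -0.36 ± 0.05 (SE, n = 2 per group; limma adjusted p = 0.00318). EIF1 itself, which keeps start codon choice strict, measured 7.79 and 7.85 in WT and 7.80 and 7.89 in WT+NU6102, where the groups overlapped, with a change of 0.03 (adjusted p = 0.698).

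Among the 4 tested genes for delivery of the initiator tRNA 3 were called higher and none lower. EIF2S1, the eIF2 alpha subunit that stress kinases phosphorylate, measured 1.58 and 1.58 in WT, 1.92 and 1.89 in WT+NU6102, 1.59 and 1.50 in CDK2 KO and 1.41 and 1.28 in R50. The treated arrays were highest and the R50 arrays lowest. The rise with NU6102 was 0.32 ± 0.06 (SE, n = 2 per group; limma adjusted p = 0.0101), and it missed the threshold without WT+NU6102 replicate 1 (0.30, adjusted p = 0.0505) and after quantile normalization (0.19, adjusted p = 0.0513). EIF2S2, the beta subunit, measured 2.18 and 2.10 in WT, 2.89 and 2.91 in WT+NU6102, 1.99 and 1.92 in CDK2 KO and 2.01 and 1.95 in R50 at its brightest probe. Again the treated arrays stood above all others. That probe rose by 0.76 ± 0.06 (SE, n = 2 per group; limma adjusted p = 0.000366), while a dimmer probe of the gene was called lower and is described below. EIF2D, which can place the tRNA without GTP, rose by 0.25 (adjusted p = 0.00729), and EIF2A, a separate factor used in alternative initiation, changed by 0.04 (adjusted p = 0.609).

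In the cap-binding group 6 of 11 genes were called higher with NU6102 and 2 lower, and the 2 eIF4A helicases went opposite ways. The brightest probe of each is shown by its first 30 of 60 bases (hg19 positions of the whole probe, both on the plus strand), since the contrast rests on these probes.
EIF4A1, chr17:7481719-7481778: aagacaagaggactcttcgagacattgaga
EIF4A2, chr3:186507026-186507085: gagatgcccatgaatgtggctgaccttatt
Whether either probe also matches the transcript of the other paralogue was not tested. EIF4A1 measured 5.54 and 5.62 in WT, 6.12 and 6.12 in WT+NU6102, 5.33 and 5.33 in CDK2 KO and 5.41 and 5.43 in R50, with the treated arrays above WT and the CDK2 KO and R50 arrays below it. It rose by 0.54 ± 0.05 (SE, n = 2 per group; limma adjusted p = 0.000596), and its 3 other probes rose by between 0.49 and 0.56. EIF4A2 measured 4.40 and 4.32 in WT, 3.57 and 3.61 in WT+NU6102, 4.78 and 4.77 in CDK2 KO and 4.45 and 4.49 in R50. Its treated arrays were lowest and its CDK2 KO arrays highest, and the change with NU6102 was -0.77 ± 0.05 (SE, n = 2 per group; limma adjusted p = 0.000293) at its single probe. EIF4A3, a relative that marks exon junctions, rose by 0.55 (adjusted p = 0.000689).

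EIF4E, which binds the cap, measured 3.17 and 3.09 in WT, 3.71 and 3.73 in WT+NU6102, 3.18 and 3.09 in CDK2 KO and 3.05 and 2.97 in R50. The treated arrays were highest, and CDK2 KO overlapped WT. It rose by 0.59 ± 0.06 (SE, n = 2 per group; limma adjusted p = 0.000915) at its brightest probe. Other probes of the gene changed by 0.44 and 0.03. EIF4E2, a cap-binding protein linked to repression of translation, rose by 0.69 (adjusted p = 0.000332). EIF4E3, a further relative, measured -3.63 and -3.57 in WT and -4.47 and -4.43 in WT+NU6102. Both treated arrays were below WT, but only 1 of them was well above background, so that the change of -0.85 (adjusted p = 0.00339) rests in part on a signal near background. Among the scaffolds EIF4G2, which lacks the eIF4E site, rose by 0.57 (adjusted p = 0.000536). EIF4G1, the main scaffold, measured 3.54 and 3.45 in WT, 3.66 and 3.68 in WT+NU6102, 3.46 and 3.48 in CDK2 KO and 3.17 and 3.25 in R50. Its rise of 0.17 ± 0.05 (SE, n = 2 per group; limma adjusted p = 0.0474) was not firm, since its call was lost in each of the 8 fits that left out 1 array (values from 0.13 to 0.22) and its sign turned under quantile normalization (-0.05). EIF4G3 (-0.22, adjusted p = 0.0685), EIF4H (-0.11, adjusted p = 0.101) and EIF4B (-0.02, adjusted p = 0.853) were not called. The 4E-binding proteins, which hold eIF4E away from the scaffold, differed. EIF4EBP2 measured 3.55 and 3.50 in WT, 4.26 and 4.33 in WT+NU6102, 3.77 and 3.78 in CDK2 KO and 3.29 and 3.27 in R50, highest with NU6102 and lowest in R50, and rose by 0.77 ± 0.05 (SE, n = 2 per group; limma adjusted p = 0.000252). EIF4EBP1 measured 4.84 and 4.95 in WT, 4.72 and 4.82 in WT+NU6102, 4.90 and 4.97 in CDK2 KO and 4.75 and 4.68 in R50. The treated arrays lay below both WT arrays, though close to them, and its change of -0.13 ± 0.07 (SE, n = 2 per group; limma adjusted p = 0.189) was not called. EIF4ENIF1, which carries eIF4E into the nucleus, changed by -0.12 (adjusted p = 0.175).

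Of 13 tested subunit genes of the eIF3 complex 8 were called higher with NU6102 and none lower, with a median log2 fold change of 0.24 and a range from -0.08 to 0.62. EIF3J, a loosely bound subunit, rose most, by 0.62 (adjusted p = 0.00126), followed by EIF3M at 0.46 (adjusted p = 0.00134) and EIF3I at 0.44 (adjusted p = 0.00829). EIF3H (0.01, adjusted p = 0.910) and EIF3E (-0.08, adjusted p = 0.299) were among the 5 not called. EIF3A, the largest subunit, rose by 0.20 (adjusted p = 0.0120) at a bright probe and lost that call without WT replicate 1 (0.20, adjusted p = 0.0580) and without WT+NU6102 replicate 2 (0.19, adjusted p = 0.0641). Its other probe was well above background in WT and CDK2 KO but not in WT+NU6102 or R50. It was called lower with NU6102 than in WT, the direction opposite to that of the bright probe. It was tested only because of the groups where it was high, so that no fold is given and the direction carries no weight. EIF6, which keeps the large subunit from joining too early, measured 5.37 and 5.41 in WT, 5.83 and 5.86 in WT+NU6102, 5.25 and 5.30 in CDK2 KO and 5.17 and 5.20 in R50, highest with NU6102 and lowest in R50. It rose by 0.45 ± 0.05 (SE, n = 2 per group; limma adjusted p = 0.000950). EIF5A, which helps ribosomes through difficult stretches of sequence, measured 5.31 and 5.34 in WT, 5.48 and 5.54 in WT+NU6102, 4.98 and 5.05 in CDK2 KO and 4.99 and 5.08 in R50. Its rise of 0.18 ± 0.06 (SE, n = 2 per group; limma adjusted p = 0.0454) lost its call in each of the 8 fits that left out 1 array (values from 0.15 to 0.21) and was 0.01 under quantile normalization. EIF5A2 (-0.49, adjusted p = 0.137) and EIF5AL1 (0.10, adjusted p = 0.250) were not called.

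The 4 Argonaute genes, whose products carry microRNAs, did not move as 1 group. EIF2C2, whose product AGO2 can cut its target, measured 2.96 and 2.94 in WT, 3.96 and 4.01 in WT+NU6102, 2.49 and 2.47 in CDK2 KO and 2.71 and 2.76 in R50. It was highest with NU6102 and lowest in CDK2 KO, and none of the groups overlapped. The rise with NU6102 was 1.04 ± 0.05 (SE, n = 2 per group; limma adjusted p = 0.000144). EIF2C1 rose by 0.33 (adjusted p = 0.00373) and EIF2C3 by 0.30 (adjusted p = 0.00479). EIF2C4 measured -2.79 and -2.83 in WT, -5.36 and -5.03 in WT+NU6102, -2.58 and -2.61 in CDK2 KO and -2.63 and -3.02 in R50. It was well above background on all 6 arrays of the other groups and on neither treated array, and was at least 4.44-fold lower with NU6102 than in WT (adjusted p = 0.000299). The bound sets the WT mean against the lowest signal that counted as well above background on each treated array, or the probe's own signal where that was higher.

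In CDK2 KO the initiation factor genes showed no common direction against WT. Of 51 genes 6 were called higher, against a background of 17.5%, and 11 lower, against 15.1%, and none moved by 1 log2 unit or more, which 2.56% of all genes did upward and 2.3% downward. The median was -0.03, and 0.03 for all genes. Without the Argonaute genes 6 of 47 were called higher and 9 lower. The largest rise was EIF4A2 (0.42 ± 0.05, SE, n = 2 per group, limma adjusted p = 0.00301), followed by EIF1B (0.30, adjusted p = 0.0167), EIF2B1 (0.27, adjusted p = 0.00954), EIF4EBP2 (0.26, adjusted p = 0.0125) and EIF1AD (0.25, adjusted p = 0.0285). The largest falls were in EIF2C2 (-0.47 ± 0.05, SE, n = 2 per group, limma adjusted p = 0.00164), EIF4B, which stimulates the helicase (-0.42, adjusted p = 0.00913), EIF2C3 (-0.40, adjusted p = 0.00297), EIF5A (-0.31, adjusted p = 0.0110) and EIF2A (-0.25, adjusted p = 0.0219). The fall of EIF2A is that of its brightest probe, while its other probe changed by 0.37. The other probe of EIF2C3 changed by -0.29, and the probes of EIF4B are described below. EIF4A1 was also called lower (-0.25, adjusted p = 0.0140), so that the eIF4A paralogues differed in direction here too. The eIF2B genes were divided, with EIF2B1 higher, EIF2B3 (-0.21, adjusted p = 0.0487) and EIF2B4 (-0.21, adjusted p = 0.0455) lower, and 2 not called. Of 13 eIF3 genes EIF3K was the 1 called, at -0.23 (adjusted p = 0.0284). EIF2S1 (-0.04, adjusted p = 0.653), EIF2S2 (-0.19, adjusted p = 0.0517), EIF4E (0.0035, adjusted p = 0.973), EIF4G1 (-0.03, adjusted p = 0.753), EIF4EBP1 (0.04, adjusted p = 0.729) and EIF6 (-0.12, adjusted p = 0.109) were not called. These counts fell when any 1 WT or CDK2 KO array was left out. Without WT replicate 2 or CDK2 KO replicate 1 the counts were 1 higher and 2 lower, and without WT replicate 1 or CDK2 KO replicate 2 they were 3 and 6. EIF4A2, EIF2C2 and EIF2C3 were the genes called in all 8 fits, and every other gene called lost its call in at least 2. EIF2B1 lost it in 2, EIF2B4 in 6 and EIF2B3 in 8 of the 8, and EIF3K in 4.

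In R50 cells 15 of the 51 genes were called lower than in WT, against a background of 13.6%, and 3 higher, against 10.9%. Without the Argonaute genes 3 of 47 were called higher and 13 lower. The log2 fold change was below 0 in 45 of the 51 (called or not), and in 55.6% of all genes, with a median of -0.16 and of -0.03 for all genes, and none reached an absolute value of 1, against 1.78% of all genes upward and 0.948% downward. The largest called falls were EIF2B4 (-0.30 ± 0.06, SE, n = 2 per group, limma adjusted p = 0.0221), EIF2B2 (-0.29, adjusted p = 0.0187), EIF1AD (-0.29, adjusted p = 0.0243), EIF5A (-0.29, adjusted p = 0.0201) and EIF4G1 (-0.28, adjusted p = 0.0200). EIF2S1 (-0.24, adjusted p = 0.0485) and EIF6 (-0.21, adjusted p = 0.0302) were called lower too. In each of these the 2 R50 arrays lay below the 2 WT arrays, as the values above show. The 3 called rises were EIF4E3 (0.48, adjusted p = 0.0463), EIF4B (0.34, adjusted p = 0.0252) and EIF3F, an eIF3 subunit (0.20, adjusted p = 0.0470). EIF4B measured 5.71 and 5.81 in WT, 5.72 and 5.76 in WT+NU6102, 5.32 and 5.35 in CDK2 KO and 6.19 and 6.02 in R50, highest on both R50 arrays and lowest in CDK2 KO. EIF2S2 (-0.16, adjusted p = 0.0927), EIF4E (-0.12, adjusted p = 0.207), EIF4A1 (-0.16, adjusted p = 0.0718) and EIF4EBP1 (-0.18, adjusted p = 0.120) were not called. At other probes EIF4E changed by -0.40 and -0.28. None of the 18 calls was kept in all 8 fits that left out 1 array. The count of lower calls was 0 without WT replicate 2, 1 without WT replicate 1 or R50 replicate 1, 5 without R50 replicate 2, and 9 or 10 without an array of another group. The higher calls fell to 0 or 1. After normexp background correction 20 genes were called lower, against 14.9% of all genes, and 1 higher, against 13.5%.

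Set against CDK2 KO on the same slide, R50 had 14 genes called lower, against a background of 21.2%, and 3 higher, against 15.6%. The median log2 fold change was -0.08 and that of all genes -0.06. None changed by an absolute log2 fold change of 1, against 2.88% upward and 2.38% downward. Without the Argonaute genes 2 of 47 were called higher and 14 lower. EIF4B was the largest rise (0.77 ± 0.07, SE, n = 2 per group, limma adjusted p = 0.00111) and was called in all 8 fits that left out 1 array. EIF2C2 (0.25, adjusted p = 0.0114) and EIF3K (0.20, adjusted p = 0.0384) were the other rises, and both missed the threshold when the slide was fitted alone (0.25, adjusted p = 0.0538, and 0.20, adjusted p = 0.0908). EIF2B1 (-0.55 ± 0.05, SE, n = 2 per group, limma adjusted p = 0.000794), EIF1AD (-0.54, adjusted p = 0.00193), EIF4EBP2 (-0.50, adjusted p = 0.00122), EIF1B (-0.48, adjusted p = 0.00322) and EIF4ENIF1 (-0.45, adjusted p = 0.00442) were the largest falls, and all 5 were called in all 8 fits. The falls of EIF4EBP2 and EIF4ENIF1 are those of the brightest probe. Another probe of EIF4EBP2 changed by -0.01 and another of EIF4ENIF1 by -0.09. Of 7 scanning genes 5 were called lower. EIF4G1 was called lower (-0.26, adjusted p = 0.0171) but not without CDK2 KO replicate 1 (adjusted p = 0.0668), CDK2 KO replicate 2 (0.0814 likewise) or R50 replicate 1 (0.0770). The lower calls numbered 8 without CDK2 KO replicate 1, 8 without CDK2 KO replicate 2 and 9 without R50 replicate 1. EIF2S1 (-0.20), EIF2S2 (0.03), EIF4E (-0.12), EIF4A1 (0.09), EIF4EBP1 (-0.22), EIF5A (0.02) and EIF6 (-0.09) were not called (limma log2 fold changes). At other probes EIF4E changed by -0.27 and -0.25.

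Between the 2 groups exposed to NU6102 the calls were the most of the 5 comparisons made. CDK2 KO was not compared with WT+NU6102. In R50 36 of 51 genes were called lower than in WT+NU6102, against a background of 29.6%, and 5 higher, against 23.8%. The median log2 fold change was -0.47, and -0.06 for all genes. A log2 fold change of at least 1 was reached upward by 2 genes, against 7.96%, and downward by 7, against 3.19%. Without the Argonaute genes 4 of 47 were called higher and 33 lower. Both dose and length of exposure differ between these groups, and they lay on different slides. All 5 eIF2B genes were called lower, with a median of -1.16. The largest falls were EIF2B2 (-1.30 ± 0.06, SE, n = 2 per group, limma adjusted p = 4.73e-05), EIF2B4 (-1.27, adjusted p = 5.86e-05), EIF2C2 (-1.25, adjusted p = 3.44e-05), EIF1AD (-1.20, adjusted p = 6.84e-05) and EIF2B1 (-1.16, adjusted p = 4.04e-05). EIF2S1 (-0.56), EIF2S2 (-0.92), EIF4E (-0.71), EIF4A1 (-0.70), EIF4G1 (-0.46), EIF5A (-0.47) and EIF6 (-0.66) were called lower as well. These are values of the brightest probe, and the other probe of EIF2S2 was called higher (0.26). EIF4EBP2 changed by -1.01 at its brightest probe and by 0.13 at its other. At other probes EIF4E changed by -0.72 and -0.43. EIF4A2 (0.88 ± 0.05, SE, n = 2 per group, limma adjusted p = 9.69e-05), EIF4B (0.36, adjusted p = 0.00805) and EIF5 (0.28, adjusted p = 0.00680) were called higher, as were EIF4E3 (1.33, adjusted p = 0.000452), which was well above background on 1 treated array, and EIF2C4, at least 4.39-fold higher in R50. EIF4EBP1 (-0.05, adjusted p = 0.559) was not called. Of the 36 lower calls 32, and all 5 higher calls, were kept in all 8 fits that left out 1 array.

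Over the 4 groups together, 25 of 51 genes passed the moderated F-test at an adjusted p under 0.001, against 23.5% of all genes. Each of the 8 fits that left out 1 array gave between 1 and 7 genes at that threshold. The fits without 1 of the 2 WT+NU6102 arrays, replicate 1 or replicate 2, each gave 1 gene. Counted over all 81 tested probes in place of genes, 47 were called higher (background 23.8%) and 8 lower (21%) with NU6102, and 10 were called higher (background 16.1%) and 18 lower (15%) in CDK2 KO. Of the same probes 5 were called higher (background 9.8%) and 20 lower (12.9%) in R50, 4 were called higher (background 14.9%) and 22 lower (19.8%) in R50 against CDK2 KO and 9 were called higher (background 22.9%) and 51 lower (28.7%) in R50 against WT+NU6102.

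Several genes gave different answers at different probes, so the most 3' and the most 5' tested probe of each gene were compared on the same array. This comparison was chosen after the values were seen. It covers 19 initiation factor genes with probes at separate hg19 positions. The measure is the log2 level of the 3' probe less that of the 5' probe, in which a change seen equally by both probes cancels. Whether dim and bright probes respond equally, and whether the probes match different transcripts, was not tested. The first 30 bases of the probes of 4 genes with called differences are shown, since the differences rest on these probes. In WT the 3' probe was the dimmer in each, with a mean difference of -3.41 (EIF2S2), -1.90 (EIF4EBP2), -2.25 (EIF4E2) and -1.89 (EIF4B). EIF2S2 is on the minus strand and the others on the plus strand, and the 5' probe of EIF2S2 spans an intron.
EIF2S2, 5' probe, chr20:32678350-32681481: gtggttctatagatggtaataaccaacttg
EIF2S2, 3' probe, chr20:32676648-32676707: aggaagctttccgttttcctagccaacttg
EIF4EBP2, 5' probe, chr10:72183525-72183584: gttgatgtctcaggaataagctggatctcc
EIF4EBP2, 3' probe, chr10:72188314-72188373: aaattaaattctcatcaatggttgctgtta
EIF4E2, 5' probe, chr2:233431864-233431923: gagtgcttaacctacctcccaacaccatta
EIF4E2, 3' probe, chr2:233448276-233448335: gctatgacaagagtgatttagtgttgcact
EIF4B, 5' probe, chr12:53427598-53427657: caaagacccaaactgaatctaaagcctcgg
EIF4B, 3' probe, chr12:53435296-53435355: tttttaagcttcccttgagagaataaatgg

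With NU6102 the 3' probe fell relative to the 5' probe in 5 of the 19 genes, against 14.9% of 4261 gene pairs in all, and rose in none, against 8.47%. Of the 19 differences 10 were below 0, as were 53.6% over all genes. In EIF2S2 the difference was -3.49 and -3.32 in WT, -4.54 and -4.43 in WT+NU6102, -2.45 and -2.33 in CDK2 KO and -3.35 and -3.27 in R50. The treated arrays were lowest and the CDK2 KO arrays highest, with WT and R50 overlapping between them. The change with NU6102 was -1.08 ± 0.10 (SE; limma adjusted p = 0.000709), and the 2 probes themselves were called in opposite directions, at 0.76 (adjusted p = 0.000366) for the 5' and -0.32 (adjusted p = 0.0114) for the 3' probe. EIF4EBP2 (-0.70 ± 0.09, SE, limma adjusted p = 0.00324) and EIF4E2 (-0.59 ± 0.08, SE, limma adjusted p = 0.00286) changed in the same direction, since their 5' probes rose by 0.77 and 0.78 while their 3' probes were not called. These 3 genes kept their calls in all 8 fits that left out 1 array. EIF4E (-0.40 ± 0.08, SE, limma adjusted p = 0.0160) and EIF2C1 (-0.40 ± 0.08, SE, limma adjusted p = 0.0168) lost theirs without WT replicate 1, WT replicate 2, WT+NU6102 replicate 1 or WT+NU6102 replicate 2, with adjusted p up to 0.0804 and 0.0856.

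**Figure D4:**
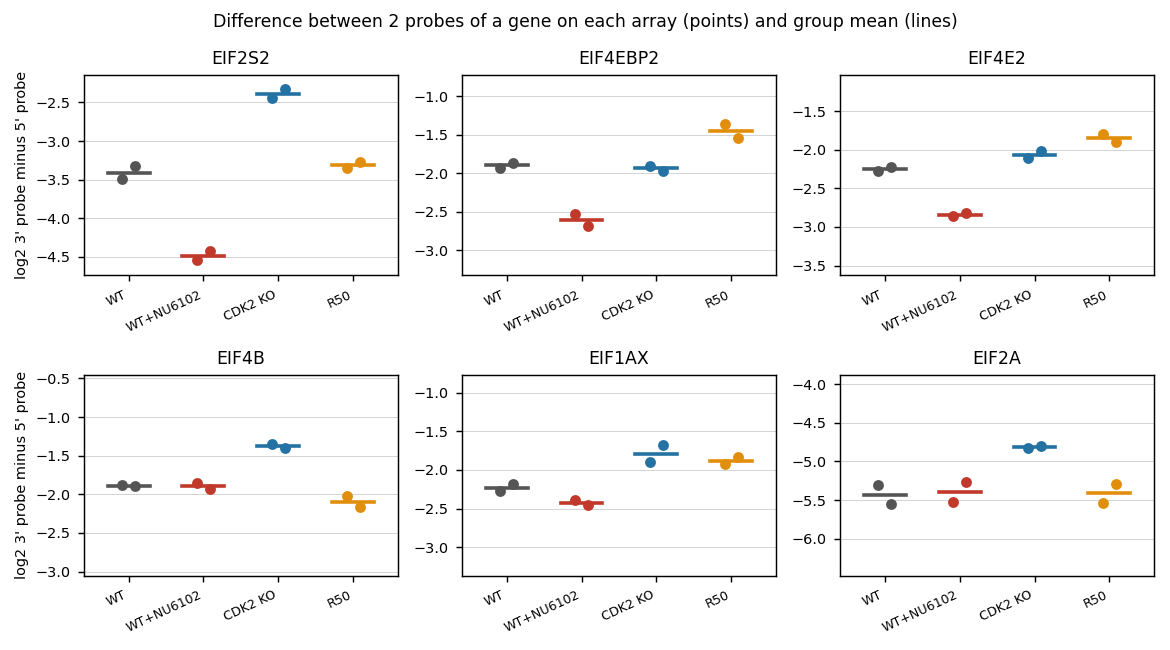
Log2 level of the most 3' probe less that of the most 5' probe of the same gene on each array (y axis, each panel spanning 2.6 units) in the 4 groups, for 6 genes with a called difference against WT. Points are arrays and lines are means of 2 arrays. EIF2S2 lies at -4.49 in WT+NU6102, at -3.41 in WT and at -2.39 in CDK2 KO, while EIF4B departs from WT in CDK2 KO.

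In CDK2 KO the 3' probe rose relative to the 5' probe in 4 genes, against a background of 15.4%, and fell in 1, against 4.65%. EIF2S2 changed by 1.02 ± 0.10 (SE; limma adjusted p = 0.00113). In EIF4B the difference was -1.89 and -1.90 in WT, -1.85 and -1.93 in WT+NU6102, -1.34 and -1.40 in CDK2 KO and -2.03 and -2.16 in R50, with CDK2 KO above all other groups. It changed by 0.52 ± 0.08 (SE; limma adjusted p = 0.00545), and its 3' probe was called higher (0.31, adjusted p = 0.0156) while its other probes were called lower (-0.42 (adjusted p = 0.00913), and -0.22 (adjusted p = 0.0299)). Between R50 and CDK2 KO the same probes moved apart again, with the 3' probe lower (-0.27, adjusted p = 0.0206) and the brightest higher (0.77, adjusted p = 0.00111). EIF2A (0.62 ± 0.14, SE, limma adjusted p = 0.0236), EIF1AX (0.44 ± 0.10, SE, limma adjusted p = 0.0215) and, downward, EIF4G3 (-0.45 ± 0.08, SE, limma adjusted p = 0.0128) were called but not in all 8 fits. The adjusted p of EIF2A rose to as much as 0.111 without WT replicate 2, CDK2 KO replicate 1 or CDK2 KO replicate 2. That of EIF1AX rose to as much as 0.112 without WT replicate 1, WT replicate 2 or CDK2 KO replicate 2, and that of EIF4G3 to 0.0736 without WT replicate 1 or CDK2 KO replicate 1. In R50 against WT 2 genes were called higher, against 6.01%, and none lower, against 1.17%. They were EIF4EBP2 (0.45 ± 0.09, SE, limma adjusted p = 0.0425) and EIF4E2 (0.40 ± 0.08, SE, limma adjusted p = 0.0328), and both lost their calls in each of the 8 fits. Other member probes crossed the background limit. A dim probe of EIF4E2 was well above background in CDK2 KO only. Its difference from WT was not called (limma adjusted p = 0.166). A probe of EIF4G3 was well above background on both arrays in WT only. Its change with NU6102 was not called (limma adjusted p = 0.275). Each was tested only because of the group where it was high, so that no fold is given.

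Genes around the initiation factors were counted by 3 lists. Of 18 tested partners of initiation, such as poly(A)-binding and eIF4A-binding proteins, 8 were called higher and 5 lower with NU6102, of 17 kinases and phosphatases that act on initiation factors 6 and 3, and of 16 elongation and termination factors 8 and 4, against 25.2% and 21.9% of all genes. PDCD4, an inhibitor of eIF4A, measured -0.92 and -0.98 in WT, -2.66 and -2.88 in WT+NU6102, -0.85 and -0.86 in CDK2 KO and -0.67 and -0.85 in R50, lowest on both treated arrays, with a change with NU6102 of -1.82 ± 0.10 (SE, n = 2 per group; limma adjusted p = 0.000178). CTIF, which links the nuclear cap-binding complex to translation, changed by -0.80 (adjusted p = 0.000873). EIF2AK2, the kinase PKR that phosphorylates eIF2 alpha, measured 3.73 and 3.63 in WT, 2.50 and 2.45 in WT+NU6102, 2.30 and 2.22 in CDK2 KO and 3.07 and 3.07 in R50. WT was highest, and the change with NU6102 was -1.21 ± 0.06 (SE, n = 2 per group; limma adjusted p = 0.000156). RPTOR, the mTORC1 subunit that recruits its substrates, rose by 0.82 (adjusted p = 0.000205). ETF1, the release factor eRF1, rose by 1.01 (adjusted p = 0.000333), and DHPS, the first enzyme of eIF5A hypusination, fell, with a change of -0.69 (adjusted p = 0.000351). In CDK2 KO 3 partners were called higher and 3 lower, 2 kinases and phosphatases higher and 4 lower, and 1 elongation or termination factor higher and 2 lower, against 17.5% and 15.1% of all genes. DDIT4, an inhibitor of mTORC1 signalling, changed by -1.51 ± 0.06 (SE, n = 2 per group; limma adjusted p = 0.000110) and EIF2AK2 by -1.42 (adjusted p = 0.000105). ABCE1, which recycles ribosomes, changed by 0.93 (adjusted p = 0.000214) and PAIP1, which binds the poly(A)-binding protein, by 0.73 (adjusted p = 0.00101). EEF2K, the kinase of elongation factor 2, changed by 0.67 (adjusted p = 0.00237) and EEF1A2, an elongation factor 1 alpha, by -0.52 (adjusted p = 0.00235). In R50 no partner was called higher and 4 lower, 3 kinases and phosphatases higher and 3 lower, and no elongation or termination factor higher and 1 lower, against 10.9% and 13.6% of all genes. DDIT4 changed by 0.88 ± 0.06 (SE, n = 2 per group; limma adjusted p = 0.00108) and EIF2AK4, the kinase GCN2, by 0.65 (adjusted p = 0.00216). DHX29, a helicase of scanning ribosomes, changed by -0.43 (adjusted p = 0.0136), LTV1, which takes part in assembly of the small subunit, by -0.31 (adjusted p = 0.00930) and PELO, a rescue factor of stalled ribosomes, by -0.18 (adjusted p = 0.0477).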

How the data were processed

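RNA of 4 groups of HCT-116 cells was labelled with Cy3 and hybridized to 8 Agilent SurePrint G3 arrays. The authors deposited scanner files with an intensity per spot from Agilent Feature Extraction 11.5.1.1, background subtracted and not normalized between arrays, and a table of log2 values of 28719 probes processed by the authors in GeneSpring GX, which served as an alternative. The labels give RNA integrity numbers between 9.8 and 9.9. A change in total RNA per cell cannot be seen in values scaled per array.

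Levels were computed, after dropping control and outlier spots, as the log2 processed signal less its 75th percentile over the array, averaged over the spots of a probe (R 4.3.3, data.table package, version 1.17.8). No spot was saturated. Of 50599 probes 31 had no usable spot on an array. A probe was tested when both arrays of some group had it well above background, which 28677 met. Tests were run with limma 3.58.1 over the 4 groups, two-sided, with Benjamini-Hochberg adjustment over all tested probes. Genes are counted by their brightest tested probe, and only gene names other than the probe's or transcript's identifier are counted. The number of arrays limits the precision. The fit was tested on simulated data. Probe positions are hg19, which the WT and WT+NU6102 scans name. Of the 85 probes 78 matched a RefSeq transcript of GRCh38.p14. Sequences of promoters are from RefSeq. Figures used matplotlib.

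The members and gene lists were chosen with earlier results of these data known. Named genes were, per comparison, the 5 largest called rises and falls among genes whose probe passed the background limit on each of the 4 arrays compared, the main subunits whatever their values, genes with probes called in opposite directions, probes that crossed the background limit, and the 2 largest called changes per surrounding list. EIF2B3, EIF2B5 and other members named beside these were chosen after their values were seen, to complete their groups. Alternatives were normexp background correction (offset 50), quantile normalization, other filters, the authors' values, a prior variance that follows the intensity, each slide alone, a replicate block, a fold change minimum, the methods' tests, all probes, and leaving out each array. The comparison of probe pairs and its alternatives were chosen after seeing the data.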

Additional observations from a re-analysis of the deposited data

How the results depend on the processing

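Higher calls outnumbered lower calls with NU6102, and lower calls outnumbered higher calls in R50 against WT+NU6102, under each alternative run. In R50 against WT no gene was called in either direction with a fold change minimum, without a filter on dim probes, by the methods' t-test or without WT replicate 2. Leaving out 1 array gave 28 to 31 higher and 4 to 5 lower calls for WT+NU6102 against WT, 1 to 6 and 2 to 10 for CDK2 KO against WT, 0 to 1 and 0 to 10 for R50 against WT, 1 to 3 and 8 to 15 for R50 against CDK2 KO, 5 to 6 and 32 to 35 for R50 against WT+NU6102, and 1 to 7 genes past the F-test. These fits have 1 array fewer and assume that the lone array of a group varies like the other groups. The share of all genes called in them was not counted, nor was that past the F-test under the alternatives. Their counts can therefore not be set against a background.

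A minimum absolute log2 fold change of 1 left 2 higher and 1 lower with NU6102, 2 higher and 7 lower in R50 against WT+NU6102, and 0 in either direction in the 3 other comparisons. Quantile normalization gave 7 lower with NU6102 (23.4% of all genes), 8 higher in R50 against WT+NU6102 (26.1%) and 16 past the F-test. Normexp gave 1 higher in R50 against WT (13.5%). Keeping the 49 genes measured above background on every array gave 2 lower with NU6102 and 3 higher in R50 against WT+NU6102. Without a filter, which adds the dim probes to the fit, 1 gene was called higher and 3 lower in CDK2 KO (9.68% and 8.52% of all), 0 and 0 in R50 (4.66% and 3.58%), 1 and 7 in R50 against CDK2 KO (9.81% and 12%), and 1 passed the F-test. A prior variance that follows the intensity gave 10 higher in CDK2 KO (20.9%), 27 lower in R50 (18.1%) and 39 past the F-test. The slide of CDK2 KO and R50 fitted alone gave 1 higher in R50 against CDK2 KO (11.7%). The methods' t-test, adjusted by Benjamini-Hochberg, called 0 higher and 2 lower in CDK2 KO (2.95% and 2.52% of all), 0 and 0 in R50 (0.0103% and 0.0308%), 0 and 4 in R50 against CDK2 KO (3.95% and 4.46%) and 3 higher in R50 against WT+NU6102 (13.1%), and the methods' ANOVA passed 14. At an unadjusted p under 0.05 the methods' t-test named 22, 18 and 22 genes in CDK2 KO, R50 and R50 against CDK2 KO, and limma 25, 31 and 22. The methods name the t-test for differences between experimental groups in general. For the arrays they name the ANOVA with a post hoc test, and that post hoc test was not run here. The t-test counts are therefore not those of the authors' procedure. Counting all 81 probes gave 8 lower with NU6102, 10 higher and 18 lower in CDK2 KO, 5 higher in R50, 22 lower in R50 against CDK2 KO, 9 higher in R50 against WT+NU6102 and 38 past the F-test. For these changes the cause was not tested.

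The replicate numbers did not pair the samples, as deviations of arrays with the same number correlated with r from -0.028 to 0.045 over 6 pairs of groups. With a replicate block 8 genes passed the F-test and no count of a pairwise comparison moved by over 1.5 times. For the probe pairs leaving out 1 array gave 3 to 5 with the 3' probe lower and 0 higher with NU6102, 0 to 1 and 2 to 4 in CDK2 KO, and 0 and 0 in R50, where normexp gave 1 lower.

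For EIF4G1 with NU6102, called at 0.17, quantile normalization turned the sign and gave -0.051. The other sign changes were in values that were not called. In CDK2 KO EIF4E gave -0.016 with normexp and -0.012 with the authors' values, and EIF4G1 0.025 with normexp. In R50 against WT+NU6102 EIF4EBP1 gave 0.0070 with normexp and 0.13 with quantile normalization. With 1 array left out the ranges that crossed 0 in CDK2 KO were -0.089 to 0.0035 for EIF2S1, -0.044 to 0.051 for EIF4E, -0.069 to 0.016 for EIF4G1 and -0.021 to 0.093 for EIF4EBP1. They were -0.011 to 0.063 for EIF2S2 and -0.021 to 0.065 for EIF5A in R50 against CDK2 KO and -0.11 to 0.00031 for EIF4EBP1 in R50 against WT+NU6102. Of 632 values of the named genes with 1 array left out, 514 kept their direction and stayed called or not called as before. Called values lost the call in 108, and 10 values that were not called changed sign. The 514 include values called in neither fit, so that they are not a share of calls kept.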
